A study of Mus musculus with 17 samples.

Results

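The cortex of mice that carry a human Tau transgene and lack chromogranin A (CgA) was compared with WT cortex, gene by gene, in 6 CgA-KO/PS19 and 5 WT libraries chosen by their labels. These are 11 of the 17 libraries of the study, and 23062 of the 56953 genes in its table had enough counts to be tested. The labels give an age of 8 months for all mice, and a legend of the study gives a slightly greater one. PS19 mice express mutant human MAPT under the mouse Prnp promoter on a mixed background, and the labels call them hTau. CgA-KO/PS19 mice (CgA-KO/hTau in the labels) are PS19 mice with a whole-body Cre-loxP deletion of Chga. The knockout line started on a mixed background, in part SvJ and in part C57BL/6. That line was backcrossed to C57BL/6J, then to the hybrid background of PS19, and crossed with PS19 mice. Each group held males and females, but the labels give no sex beside a library. Mice that lack CgA without the transgene were not sequenced. What the transgene, the loss of Chga and any remaining difference in strain background contribute to a difference therefore cannot be told apart in this comparison. The 6 PS19 libraries entered the shared estimate of spread in the test, and their levels are given beside the results as values only.

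CgA is an acidic protein of the regulated secretory pathway that is packed with catecholamines, peptide hormones and ATP into dense-core granules, and is cut into shorter peptides such as catestatin and pancreastatin. In brain it is found in neurons and is known from the plaques and dystrophic neurites of Alzheimer's disease. Tau is the microtubule-associated protein that becomes phosphorylated and aggregates in tauopathy.

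The promoters of Chga, the deleted gene, and of Prnp, whose regulatory region drives the transgene, are shown as reference sequence for the first 2 genes described, and no promoter was measured here. Each is the 250 bases upstream of the RefSeq start on the plus strand of GRCm38.p6, and capitals mark motif matches on either strand. The motifs searched were the cAMP-response core TGACG (reverse CGTCA), the Sp1 box GGGCGG (reverse CCGCCC) and the TATA box TATAAA (reverse TTTATA), none of which overlap here.
Chga, chr12:102554691-102554940: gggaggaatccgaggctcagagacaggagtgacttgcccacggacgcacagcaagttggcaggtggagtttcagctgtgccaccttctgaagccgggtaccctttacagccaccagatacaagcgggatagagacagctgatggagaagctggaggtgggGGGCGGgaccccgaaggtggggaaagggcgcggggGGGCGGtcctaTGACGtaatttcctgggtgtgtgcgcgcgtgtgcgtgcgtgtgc
Prnp, chr2:131909678-131909927: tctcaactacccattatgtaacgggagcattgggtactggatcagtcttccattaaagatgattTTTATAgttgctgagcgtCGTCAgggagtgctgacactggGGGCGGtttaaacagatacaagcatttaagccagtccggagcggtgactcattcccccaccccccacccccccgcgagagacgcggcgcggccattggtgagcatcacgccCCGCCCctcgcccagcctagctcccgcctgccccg
The Chga window held TGACG 44 bases before the start and the Sp1 box at 90 and 55 bases, and the Prnp window held CGTCA at 168 bases, the Sp1 box at 146 and 35 bases and TTTATA at 186 bases. Of 32851 mouse promoter windows searched in the same way, 17.8% held TGACG, 32.7% the Sp1 box and 12.4% TATAAA, each on either strand.

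Expression is given as CPM, the count divided by the library's TMM-adjusted size (edgeR) and so comparable between libraries. The total count was 8838334 in WT replicate 4 and 33511454 to 227651681 in the other 16 libraries, and the low counts peaked at 3 and 6, so about 3 counts stood for 1 fragment. Several libraries stood apart. In CgA-KO/PS19 replicates 1, 2, 3 and 6 between 10.9% and 18.2% of counts were mitochondrial, but 3.84% and 6.63% in replicates 4 and 5, 3.53% to 7.94% in WT and 2.56% to 4.59% in PS19. Ddx3y, a Y chromosome gene, was high in replicates 1 to 3 of each genotype only, so within CgA-KO/PS19 replicates 1 to 3 differ from 4 to 6 in this marker as well as in the values below. WT replicate 5 carried choroid plexus transcripts. Counts of genes are therefore also given without the 4 CgA-KO/PS19 libraries above 10% mitochondrial counts or without WT replicate 5 for the main gene groups. The projection neuron markers of cortex were present in every library, with a summed level of 4204 to 6708 CPM in WT and 5917 to 6826 CPM in CgA-KO/PS19, and none of the 10 was called by edgeR, 1 had an unadjusted p under 0.05 and DESeq2 called 1.

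In the quasi-likelihood test of edgeR, adjusted by Benjamini and Hochberg's method over all genes, 1489 genes differed between CgA-KO/PS19 and WT at an FDR under 0.05, 6.46% of those tested. Of these, 822 were higher in CgA-KO/PS19 (3.56%) and 667 lower (2.89%). The typical difference was modest, with a median log2 fold change of 0.88 among the higher genes and -0.71 among the lower, against 0.01 over all genes tested. A log2 fold change beyond 1 was reached by 340 higher and 219 lower genes. An unadjusted p under 0.05 was reached by 5006 of the 23062 genes tested. Every CgA-KO/PS19 library lay above every WT library for 374 of the called higher genes and below for 286 of the called lower genes. Over all genes tested such a separation was found for 3.6%, upward for 2.06% and downward for 1.54%. At the threshold of the study's methods, a log2 change beyond 0.5 with an unadjusted p under 0.01, 1075 genes were higher (4.66%) and 712 lower (3.09%). With the 4 libraries rich in mitochondrial counts left out, 212 genes were higher and 270 lower at the FDR threshold, and 231 of the 1489 genes were still called. The counts were 341 and 286 without WT replicate 5, 463 and 384 without CgA-KO/PS19 replicate 2, and 1032 and 1067 without WT replicate 4. With only the WT and CgA-KO/PS19 libraries fitted, 151 genes were higher and 115 lower, and 264 of the 1489 genes were still called.

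**Figure D1:**
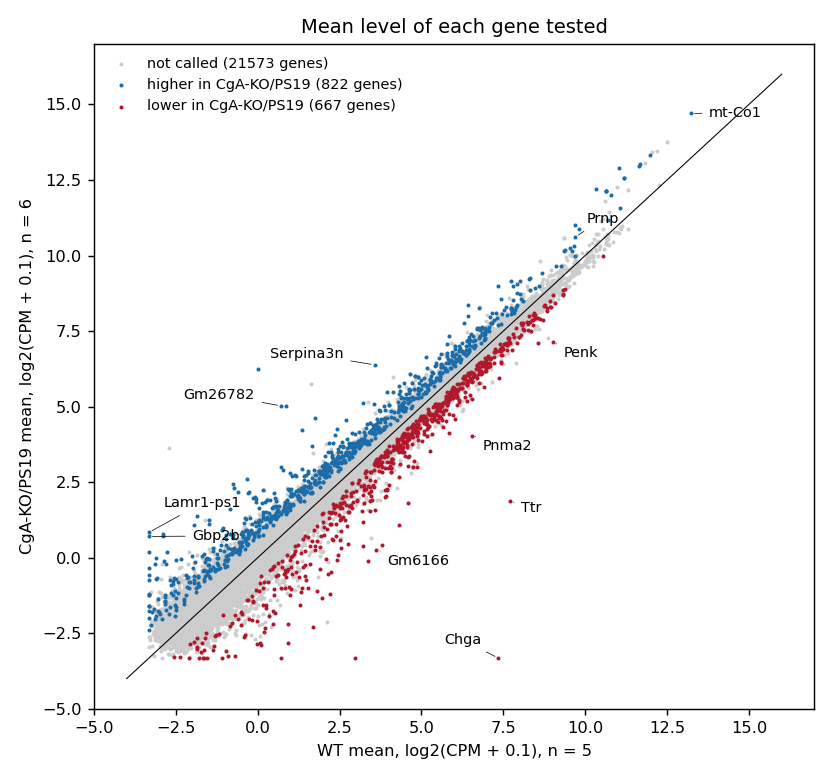
Mean level of each of the 23062 genes tested, as log2(CPM + 0.1), in WT (horizontal axis, n = 5) and CgA-KO/PS19 (vertical axis, n = 6); blue points are the 822 genes called higher, red points the 667 called lower, and the line marks equal levels. Chga lies on the lower edge because it had no count in CgA-KO/PS19.

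Within replicates 1 to 3 of both genotypes, and separately within the remaining replicates, 1485 of the 1489 called genes had a mean difference in the called direction in both sets, against 12687 of the 23062 genes tested. These sets are parts of the libraries that made the calls, so agreement is largely fixed by the calling. The count is no independent evidence, also when set beside all genes tested. Agreement in sign says nothing of size, since Ttr is counted with log2 differences of means of -0.23 and -7.41. Processed and other pseudogenes were called more often than their share, with 205 higher and 42 lower of 2244 (11%), than protein-coding genes, with 454 higher and 590 lower of 15918 (6.56%), or long noncoding genes, with 98 higher and 24 lower of 2889 (4.22%). Reads of a pseudogene and its parent can be assigned to either, so pseudogene values are uncertain.

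The genotype was checked in 3 genes. Chga (chr12:102554969-102565028, GRCm38) stood at 152, 160, 168, 152 and 180 CPM in the 5 WT libraries and at 0 in all 6 CgA-KO/PS19 libraries. Against the limit that 0 counts allow in the shallowest CgA-KO/PS19 library, 9 counts or 0.260 CPM, it was at least 625.4-fold lower (edgeR adjusted p = 4.17e-15). PS19 libraries held 168 CPM ± 6.68 (SD, n = 6), near the WT level. Prnp, the prion protein gene (chr2:131909928-131938429), stood at 843, 914, 774, 748 and 884 CPM in WT, and its lowest, median and highest levels in CgA-KO/PS19 were 1236, 1512 and 2079 CPM. All 6 CgA-KO/PS19 libraries lay above all 5 WT libraries, and the log2 fold change was 0.91 (SE 0.13, adjusted p = 7.84e-04). PS19 held 2119 CPM ± 174 (SD, n = 6). Mapt, the mouse tau gene to which reads of the human transgene may also map, did not pass the test, with 733, 740, 606, 199 and 701 CPM in WT and 584 to 868 CPM in CgA-KO/PS19 (log2 fold change 0.24, SE 0.23, adjusted p = 0.595). The low WT value was that of the shallowest library.

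A pseudogene 4.97 kb upstream of Prnp was detected in the 2 transgenic genotypes only. Lamr1-ps1 (chr2:131904086-131904959) had no count in any WT library and 1.27, 1.54 and 2.40 CPM as the lowest, median and highest in CgA-KO/PS19, with 3.32 CPM ± 0.548 (SD, n = 6) in PS19. The lincRNA 4930590L14Rik on chromosome 3 (140951876-140953247) had the same pattern, with 0 in WT, 0.535 to 1.59 CPM in CgA-KO/PS19 and 0.725 CPM ± 0.194 (SD, n = 6) in PS19. The limit of 9 counts in the shallowest WT library is 1.03 CPM, so Lamr1-ps1 was at least 1.64-fold and 4930590L14Rik at least 1.02-fold higher in CgA-KO/PS19 (edgeR adjusted p = 1.45e-08 and 3.74e-06).

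Several differences were steps that separated all CgA-KO/PS19 libraries from all WT libraries, with PS19 near WT. Gm26782, an antisense transcript on chromosome 14 (50870324-50880603), stood at 1.65, 1.75, 1.32, 2.05 and 0.927 CPM in WT and at 21.6, 29.3 and 45.6 CPM (lowest, median, highest) in CgA-KO/PS19. The log2 fold change of Gm26782 was 4.46 (SE 0.25, edgeR adjusted p = 8.23e-09), with 1.59 CPM ± 0.300 (SD, n = 6) in PS19. Serpina3n, a secreted serine protease inhibitor that marks reactive astrocytes, held 8.59, 15.8, 12.1, 7.98 and 14.5 CPM in WT. In CgA-KO/PS19 it held 76.8, 83.3 and 92.6 CPM, a range narrower than the distance to the highest WT library, and rose by 2.81 on the log2 scale (SE 0.22, adjusted p = 5.98e-07) against 14.1 CPM ± 4.04 (SD, n = 6) in PS19. Vps41, a subunit of the HOPS complex that tethers vesicles to lysosomes and serves dense-core granule formation, stood at 101, 85.1, 83.0, 99.9 and 87.2 CPM in WT and at 151, 162 and 191 CPM in CgA-KO/PS19. The log2 fold change of Vps41 was 0.87 (SE 0.09, adjusted p = 1.48e-05), and PS19 held 104 CPM ± 6.89 (SD, n = 6). Pop4, a protein subunit of RNase P and RNase MRP, rose from 7.33 CPM ± 0.796 (SD, n = 5) to 17.3 CPM ± 2.47 (SD, n = 6), a log2 fold change of 1.24 (SE 0.12, adjusted p = 1.28e-05).

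Lower, less abundant transcripts showed the same separation. Gbp2b, an interferon-inducible guanylate-binding protein gene (chr3:142594847-142619179), was at 0 in every WT and every PS19 library and at 0.969, 1.54 and 2.14 CPM (lowest, median, highest) in CgA-KO/PS19, at least 1.49-fold higher (edgeR adjusted p = 2.07e-04). Krt20, a keratin gene, was at 0 in 3 WT libraries and at most 0.138 CPM in the other 2, against 0.722 to 2.72 CPM in CgA-KO/PS19 (adjusted p = 0.00134). The pseudogene Gm17669 rose from at most 0.0579 CPM to 0.590 to 3.18 CPM (adjusted p = 5.34e-05). For these 3 genes the WT levels lay at or below the limit that 9 counts set in the shallowest WT library, so no fitted fold is given.

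**Figure D2:**
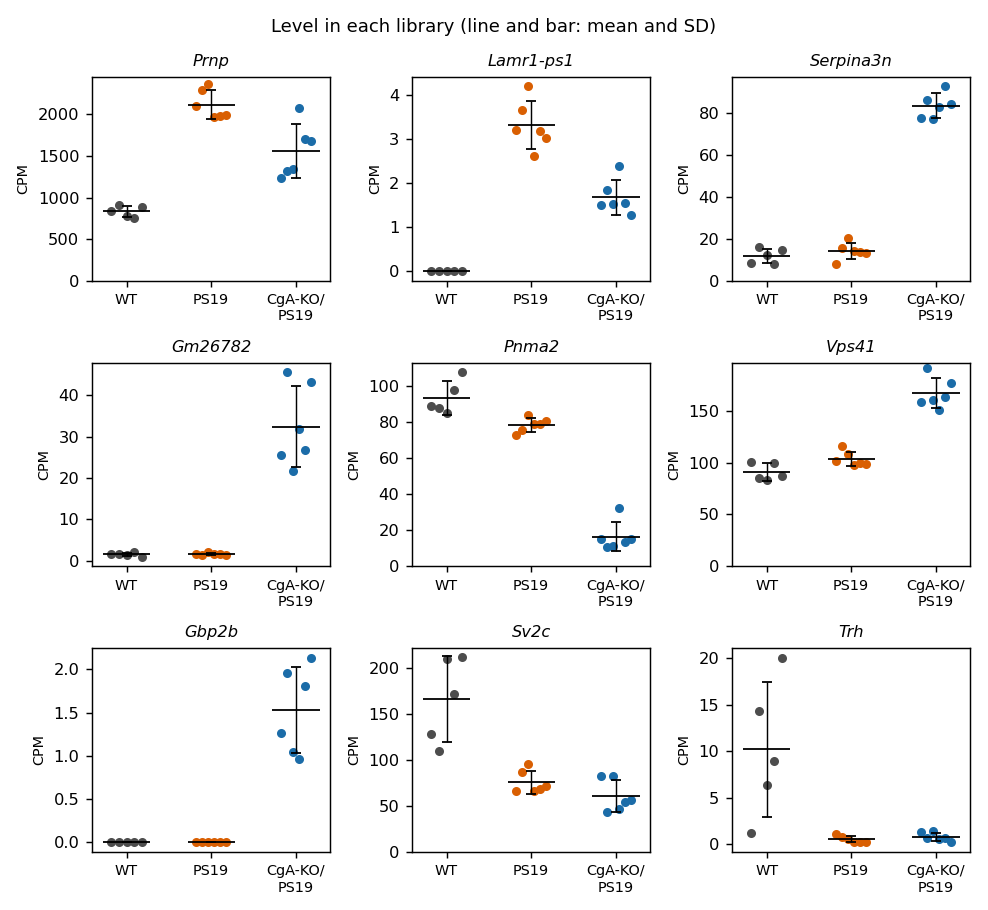
Level in CPM of 9 genes in each of the 5 WT (grey), 6 PS19 (orange) and 6 CgA-KO/PS19 (blue) libraries, with the mean as a line and the SD as a bar. Prnp and Lamr1-ps1 were higher in both transgenic genotypes, Serpina3n, Gm26782, Vps41 and Gbp2b were higher and Pnma2 lower in CgA-KO/PS19 with PS19 near WT, and Sv2c and Trh were low in both.

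Among the lower genes, Pnma2, a paraneoplastic neuronal antigen related to retroviral Gag proteins (chr14:66911170-66921023), stood at 88.5, 87.4, 84.8, 97.4 and 108 CPM in WT. In CgA-KO/PS19 it stood at 10.6, 14.4 and 32.1 CPM, and PS19 held 78.3 CPM ± 3.87 (SD, n = 6). The groups were far apart, with a log2 fold change of -2.51 (SE 0.22, edgeR adjusted p = 2.87e-06). The gene ENSMUSG00000121477, which the reference annotation used here does not hold, differed less but with little spread, from 53.8, 56.3, 52.8, 53.0 and 57.0 CPM in WT to 32.5, 33.0 and 35.1 CPM in CgA-KO/PS19 (log2 fold change -0.71, SE 0.07, adjusted p = 8.08e-06). PS19 held a mean of 58 CPM.

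The pseudogenes Gm6166, Gm3375, Gm7224 and Gm8420 fell in the same way. Gm6166 fell from 12.2 CPM ± 2.52 (SD, n = 5) to 1.09 CPM ± 0.295 (SD, n = 6), with 15.2 CPM in PS19 (log2 fold change -3.50, edgeR adjusted p = 3.25e-09). Gm3375 fell from 24.1 CPM ± 5.70 to 3.41 CPM ± 0.673, with 30.2 CPM in PS19 (log2 fold change -2.83, adjusted p = 9.67e-09). Gm7224 fell by 2.28 on the log2 scale (adjusted p = 2.14e-06), and PS19 held 4.66 CPM of it beside 4.17 CPM in WT. Gm8420 lay at 1.04 to 1.66 CPM in WT and at 0 to 0.518 CPM in CgA-KO/PS19 (adjusted p = 0.00443), where 5 of the 6 libraries lay under the 0.260 CPM limit, so no fold is given. In none of the 4 did a CgA-KO/PS19 library reach a WT library.

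For a further set of lower genes the PS19 libraries also held low levels. Sv2c, a synaptic vesicle glycoprotein most abundant in the basal ganglia, stood at 128, 110, 210, 171 and 212 CPM in WT and at 43.6, 55.4 and 83.0 CPM in CgA-KO/PS19, without overlap (log2 fold change -1.45, SE 0.20, edgeR adjusted p = 6.48e-04). PS19 held 75.6 CPM ± 12.3 (SD, n = 6). Gpr101, an orphan G protein-coupled receptor of hypothalamus and striatum, varied widely among the WT libraries, at 5.76, 17.3, 4.81, 22.9 and 48.1 CPM, and lay at 0.498 to 4.28 CPM in CgA-KO/PS19 (log2 fold change -3.27, SE 0.64, adjusted p = 0.00667) and 0.206 CPM in PS19. Tmem72, a choroid plexus gene, and Chrm5, the muscarinic receptor of dopamine neurons, fell by 3.25 and 2.87 on the log2 scale (adjusted p = 0.00695 and 0.00804), with both highest in WT replicate 5, at 7.69 and 3.35 CPM.

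Serpina3n lies 1.84 Mb from the deleted gene, and the genes around Chga on chromosome 12 were therefore counted by distance. Within 5 Mb of Chga, itself not counted, 12 of 105 genes tested were called, 6 higher and 6 lower (11.4%), and this count was 4 when only the 2 genotypes were fitted and 7 without WT replicate 5. Within 10 Mb 20 of 200 were called (10%), within 20 Mb 29 of 361 (8.03%), and farther out on the same chromosome 31 of 523 (5.93%). Besides Serpina3n the called neighbours with the smallest p were Rpl30-ps8, Tdp1, Nrde2, Serpina1b and Tunar. Tdp1, a DNA repair phosphodiesterase, stood at 12.5, 13.3, 11.9, 9.92 and 15.0 CPM in WT and at 7.67, 7.87 and 9.24 CPM in CgA-KO/PS19 (log2 fold change -0.62, SE 0.11, edgeR adjusted p = 0.00436). Nrde2, a nuclear RNA interference factor, fell by 0.62 too (SE 0.13, adjusted p = 0.0084), from 20.3 CPM ± 2.47 (SD, n = 5) to 13.2 CPM ± 2.19 (SD, n = 6). PS19 held 10.7 CPM of Tdp1 and 17.7 CPM of Nrde2.

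Serpina1b, an alpha-1-antitrypsin gene, was at 0 in all WT libraries and at 0.203 to 0.410 CPM in CgA-KO/PS19, which is below the 1.03 CPM that 9 counts allow in WT replicate 4 (edgeR adjusted p = 0.0101). Rpl30-ps8, a ribosomal pseudogene, rose from 0.321 CPM ± 0.0817 (SD, n = 5) to 0.891 CPM ± 0.221 (SD, n = 6). Tunar, a neural long noncoding RNA with a small open reading frame, fell by 0.82 (SE 0.18, adjusted p = 0.0116), and PS19 held 8.08 CPM of it against 17 CPM in WT and 9.62 CPM in CgA-KO/PS19.

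**Figure D3:**
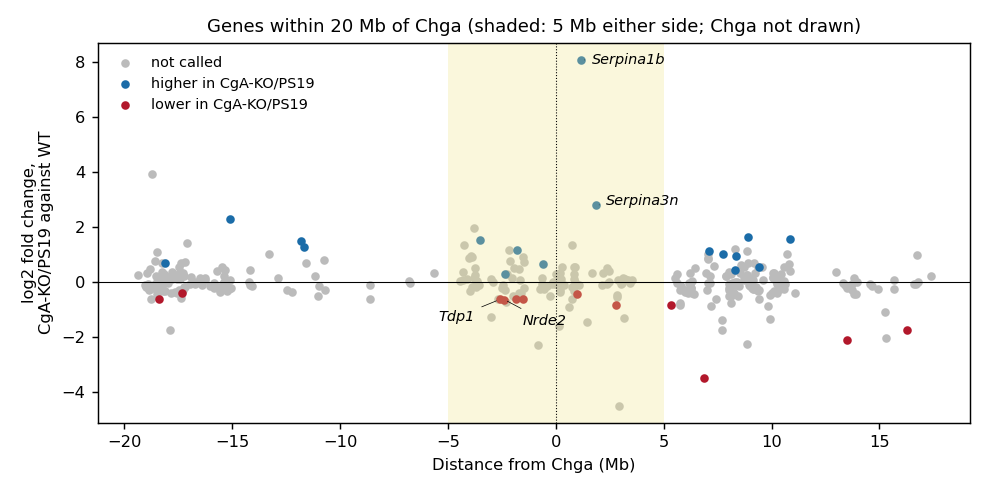
Fitted log2 fold change, CgA-KO/PS19 against WT, of the genes tested within 20 Mb of Chga by their distance from it in Mb; blue and red points were called higher and lower, grey points were not called, and the shaded band marks 5 Mb either side, where 12 of 105 genes were called. Chga is not drawn, and the fitted value of Serpina1b is drawn from WT libraries that are all at 0 and has no meaning as a fold.

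Other stretches of the genome held a larger share of called genes. In the 406 windows of 5 Mb with at least 20 tested genes, the median share called was 5.88%, 24 windows held none, and 7 reached 20%. In chr14:50000001-55000000, the window of Gm26782, 21 of 77 genes were called (27.3%), and 14 of those 77 did not overlap between the genotypes. In chr14:65000001-70000000, the window of Pnma2, 12 of 52 were called (23.1%). In chr3:140000001-145000000, the window of Gbp2b, Gbp3, Gbp7 and 4930590L14Rik, 6 of 28 were called (21.4%). The windows were ranked after their values were seen, so their shares describe these libraries and were not tested.

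Interneuron markers were lower in CgA-KO/PS19. Of 20 genes listed for GABAergic interneurons, 9 fell and none rose (45%, against 6.46% of all genes tested), and the median log2 fold change was -0.62. They were Gad1, Gad2 and Slc32a1, which make GABA and load it into vesicles, the transcription factors Dlx5 and Dlx6, and the subtype markers Sst, Calb2, Reln and Ndnf. Gad2 stood at 307, 330, 412, 523 and 526 CPM in WT and at 173, 224 and 309 CPM in CgA-KO/PS19, where only the highest library reached the lowest of WT (log2 fold change -0.84, SE 0.15, edgeR adjusted p = 0.00443). Ndnf, a marker of layer 1 interneurons, stood at 22.6, 26.2, 42.5, 36.4 and 32.5 CPM in WT and at 8.21, 15.1 and 20.2 CPM in CgA-KO/PS19, without overlap (log2 fold change -1.14, SE 0.21, adjusted p = 0.00471). Gad1 fell by 0.67 (SE 0.16, adjusted p = 0.022), and Reln, the secreted layering signal, by 0.68 (SE 0.16, adjusted p = 0.017).

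Interneuron markers did not move as one. Calb2, shared by interneurons and thalamus, fell by 1.77 (SE 0.31, edgeR adjusted p = 0.00398), whereas Pvalb, the calcium buffer of fast-spiking basket cells, had a fitted log2 fold change of 0.48 (SE 0.23, adjusted p = 0.242) and Vip one of 0.26 (SE 0.31, adjusted p = 0.694). The summed level of the 20 genes was 1616 to 2091 CPM in WT, 997 to 1043 CPM in CgA-KO/PS19 replicates 1 to 3 and 1495 to 1541 CPM in replicates 4 to 6. All 6 thus lay below the lowest WT library, and PS19 lay at 1648 to 1821 CPM. Leaving out the 4 libraries rich in mitochondrial counts left 2 members called, and leaving out WT replicate 5 left 3. In bulk tissue fewer cells of a type and less RNA per cell cannot be told apart. The summed striatal level also differed between the libraries, as given below, and its part in these falls was not tested. With the striatal level as a covariate 13 of the 20 genes were called lower, in a fit that called 2705 genes lower in all. Tac1 is on both lists.

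Peptide precursors were called in both directions. Of those called, only Sst is also on the interneuron list, and Penk and Pdyn are on the striatal list. Of 21 tested, Sst, Penk, Pdyn, Pomc and Trh fell and Cort, the interneuron peptide cortistatin, rose (median log2 fold change -0.50). These calls were 28.6% of the list, against 6.46% of all genes tested. Trh, the precursor of thyrotropin-releasing hormone, stood at 1.24, 14.3, 6.39, 9.01 and 20.1 CPM in WT and at 0.289, 0.670 and 1.42 CPM in CgA-KO/PS19 (log2 fold change -3.62, SE 0.57, edgeR adjusted p = 0.00178). Only WT replicate 1 lay in the CgA-KO/PS19 range, and PS19 held 0.543 CPM ± 0.327 (SD, n = 6). Trhr, its receptor, fell by 1.69 (SE 0.35, adjusted p = 0.00959), with WT replicates 1 and 3 lowest in both genes of the pair. Pdyn, the dynorphin precursor, fell by 0.90 (SE 0.18, adjusted p = 0.00695), from 43.7 CPM ± 11.2 (SD, n = 5) to 23.4 CPM ± 5.84 (SD, n = 6), with 33.9 CPM in PS19. Cort rose from 2.92 CPM ± 0.770 to 4.83 CPM ± 0.943 (log2 fold change 0.73, SE 0.18, adjusted p = 0.0222). Pomc, the precursor of corticotropin and melanocortins, stood at 0.145, 0.538, 5.60, 16 and 0.512 CPM in WT and at 0 to 0.578 CPM in CgA-KO/PS19 (adjusted p = 0.0301). Only WT replicates 3 and 4 lay above the CgA-KO/PS19 range, and the call was lost without either of them, as well as without CgA-KO/PS19 replicate 1 or 2. The pituitary hormone genes Prl and Gh were also highest in one of these 2 libraries, at 30.7 CPM for Prl in WT replicate 4 and 3.13 CPM for Gh in WT replicate 3, and the part of pituitary RNA in the Pomc value was not tested. Of the 21 precursors 3 were called lower and 2 higher without the 4 libraries rich in mitochondrial counts, 3 and 0 without WT replicate 5, and 1 and 0 when only the 2 genotypes were fitted.

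Of the 14 granin and prohormone processing genes, Chga and Nucb2, which encodes the nesfatin precursor, were lower and none was higher. With the deleted Chga counted, that is 14.3% of the list, against 6.46% of all genes tested. Nucb2 stood at 21.6, 23, 24.1, 44.5 and 30.1 CPM in WT and at 12.6, 15.9 and 27.7 CPM in CgA-KO/PS19 (log2 fold change -0.73, SE 0.21, edgeR adjusted p = 0.0407). The nearest relative of CgA, Chgb, did not pass the test, at 634 to 1293 CPM in WT and 320 to 1277 CPM in CgA-KO/PS19 (adjusted p = 0.57), nor did Scg2 (adjusted p = 0.163), Scg3 (adjusted p = 0.139), or the convertases Pcsk1 and Pcsk2 (adjusted p = 0.946 and 0.625).

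Genes that mark tissue around the cortex spread widely between libraries. Of 20 striatal medium spiny neuron genes 19 had a lower fitted level in CgA-KO/PS19 (median log2 fold change -0.89). Only Penk and Pdyn were called (10%, against 6.46% of all genes tested). Penk, the enkephalin precursor, stood at 308, 338, 654, 452 and 819 CPM in WT and at 29.9, 73.9 and 315 CPM in CgA-KO/PS19 (log2 fold change -1.89, SE 0.52, edgeR adjusted p = 0.0375). The summed striatal level was 1740 to 2117 CPM in WT replicates 1, 2 and 4, 4929 and 5077 CPM in WT replicates 5 and 3, 3490 and 3553 CPM in CgA-KO/PS19 replicates 1 and 3, 586 to 934 CPM in the other 4, and 595 to 740 CPM in PS19. Neither genotype was uniform in this measure. With the striatal level as a covariate Penk, Pdyn, Sv2c and Gpr101 were called lower. Penk and Pdyn are themselves part of that level, and this fit called 2286 genes higher and 2705 lower. The part of striatal tissue in these falls was not tested. In the fit without the 4 libraries rich in mitochondrial counts, which include both striatum-rich CgA-KO/PS19 libraries, 15 of the 20 genes were called lower.

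The basal forebrain and septum list had 2 of 13 genes called lower (15.4%, against 6.46% of all genes tested), Ecel1 and the vesicular acetylcholine transporter Slc18a3. All 13 fitted values were below 0 (median -1.56). The count was 8 without the 4 libraries rich in mitochondrial counts, 0 without WT replicate 5 and 0 when only the 2 genotypes were fitted. Of 11 hippocampal genes Dsp, Fibcd1, Wfs1 and Trhr fell (36.4%) and all 11 fitted values were below 0 (median -0.98). Of the 11, 1 was called without those 4 libraries and 2 without WT replicate 5. Wfs1, the wolframin gene of the endoplasmic reticulum and a marker of CA1 and upper-layer neurons, stood at 172, 166, 141, 139 and 247 CPM in WT and at 56.8, 92.3 and 113 CPM in CgA-KO/PS19, without overlap (log2 fold change -0.98, SE 0.17, edgeR adjusted p = 0.00376). PS19 held 90.0 CPM ± 6.94 (SD, n = 6).

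The choroid plexus list had 7 of 15 genes called lower (46.7%, median -2.74), namely Ttr, Kl, Clic6, Sostdc1, Prlr, Tmem72 and F5, and this count rested on 1 library. Ttr, transthyretin, the main secreted product of that epithelium, stood at 6.25, 3.24, 5.33 and 9.92 CPM in WT replicates 1 to 4 and at 1023 CPM in WT replicate 5, against 2.63 to 6.75 CPM in CgA-KO/PS19. Without WT replicate 5, 1 of the 15 genes was called. The summed level of the list was 171 to 207 CPM in the other 4 WT libraries, 142 to 225 CPM in CgA-KO/PS19 and 1488 CPM in WT replicate 5.

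**Figure D4:**
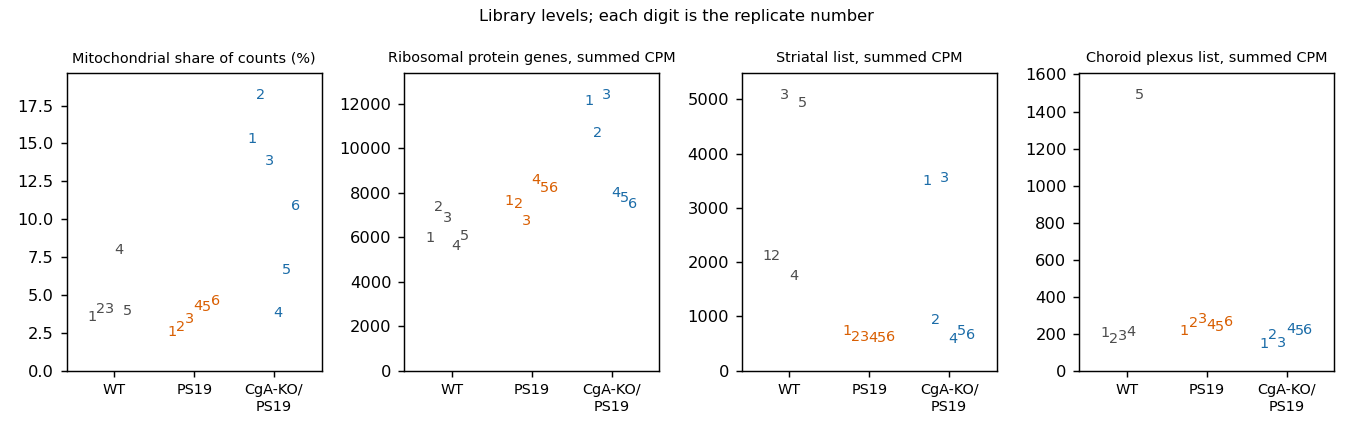
Mitochondrial share of counts (%) and summed levels (CPM) of the cytosolic ribosomal protein, striatal and choroid plexus genes in each library, drawn as its replicate number, for WT, PS19 and CgA-KO/PS19. CgA-KO/PS19 replicates 1 to 3 lie apart from 4 to 6 in the ribosomal panel, WT replicates 3 and 5 and CgA-KO/PS19 replicates 1 and 3 are high in the striatal panel, and WT replicate 5 is alone in the choroid plexus panel.

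Called glial genes were mostly higher. The shares called were 12.5% of the myelin, 14.3% of the astrocyte and 4.76% of the reactive astrocyte genes, against 6.46% of all genes tested. Of 16 oligodendrocyte and myelin genes Mobp and Mbp, both structural proteins of compact myelin, rose, and all 16 fitted values were above 0 (median 0.30). Mobp stood at 139, 177, 223, 135 and 139 CPM in WT and at 233, 493 and 797 CPM in CgA-KO/PS19, without overlap (log2 fold change 1.65, SE 0.30, edgeR adjusted p = 0.00504), with 198 CPM ± 32.3 (SD, n = 6) in PS19. Mag and Mog, other myelin genes, were not called (adjusted p = 0.709 and 0.202). Of 14 astrocyte genes Aldoc, a brain aldolase, and S100b rose by 0.95 and 0.89 (SE 0.22 and 0.24, adjusted p = 0.0183 and 0.0341), and 12 fitted values were above 0 (median 0.52). Of 21 reactive astrocyte genes only Serpina3n was called, and Gfap, the intermediate filament of astrocytes, went from 55.1 CPM ± 13.7 (SD, n = 5) to 106 CPM ± 61.0 (SD, n = 6) without passing the test (adjusted p = 0.0737). In the fit without the 4 libraries rich in mitochondrial counts no myelin gene was called, 1 astrocyte gene was called lower and Serpina3n was still called higher.

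Of the homeostatic microglial genes 14.3% were called and of the disease-associated ones 5%, against 6.46% of all genes tested. Of 14 homeostatic genes P2ry13, a purinergic receptor, fell from 18.3, 19, 17.3, 18 and 18 CPM in WT to 8.18, 12.2 and 15.0 CPM in CgA-KO/PS19 (log2 fold change -0.60, SE 0.13, edgeR adjusted p = 0.0116), and Fcrls rose by 0.75 (SE 0.22, adjusted p = 0.046). Of 20 disease-associated genes tested only Fth1, the ferritin heavy chain that many cell types express, was called, from 658 CPM ± 47.6 (SD, n = 5) to 1149 CPM ± 272 (SD, n = 6). Trem2 (adjusted p = 0.5), Cd68 (adjusted p = 0.191) and the complement gene C1qa (adjusted p = 0.731) did not pass. Of 20 complement genes the receptors C3ar1 and C5ar1 rose by 1.18 and 1.37 (SE 0.27 and 0.36, adjusted p = 0.0158 and 0.0307) from levels of 1.3 and 0.254 CPM in WT. These calls were 10% of the complement list, against 6.46% of all genes tested. No complement gene was called without the 4 libraries rich in mitochondrial counts or without WT replicate 5.

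Interferon-response genes and immunity GTPases mostly had a higher fitted level in CgA-KO/PS19. Of 39 tested, 8 rose and none fell (20.5%, against 6.46% of all genes tested). Above 0 lay 36 fitted values, and the median log2 fold change was 0.46, also with Gbp2b at its bound. Ifit3b and Ifit3, interferon-induced proteins that bind foreign RNA, stood at 3.73, 4.46, 3.96, 2.51 and 3.25 CPM and at 4.69, 5.64, 6.65, 5.70 and 4.40 CPM in WT. In CgA-KO/PS19 their lowest levels, 5.41 and 7.46 CPM, lay above every WT library (log2 fold changes 0.95 and 0.67, SE 0.16 and 0.13, edgeR adjusted p = 0.00237 and 0.00716). The guanylate-binding proteins Gbp3, Gbp6 and Gbp7 rose by 0.71, 1.03 and 0.70 (adjusted p = 0.0309, 0.0358 and 0.0112), the immunity GTPase Irgm1 by 0.55 (adjusted p = 0.0124) and the RNA sensor Ifih1 by 0.73 (adjusted p = 0.0461). Gbp2b, Gbp3 and Gbp7 lie in the same window, chr3:140000001-145000000, where 6 of 28 genes were called. Whether their calls are separate was not tested. Gbp2, a relative of Gbp2b, did not pass (adjusted p = 0.889). The summed level was 121 to 142 CPM in WT, 156 to 186 CPM in CgA-KO/PS19 and 143 to 168 CPM in PS19, so the WT and CgA-KO/PS19 libraries did not overlap. With the 4 libraries rich in mitochondrial counts left out, 4 members were called. None of 23 MHC and antigen presentation genes was called by edgeR or DESeq2 (median 0.16). An unadjusted p under 0.05 was held by 4 of them, against 5006 of the 23062 genes tested.

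Mitochondrially encoded genes were higher in CgA-KO/PS19 in some libraries only. Of 13 tested, 7 rose (53.8%, against 6.46% of all genes tested) and all 13 fitted values were above 0 (median 1.34). Their sum was 31380 to 75412 CPM in WT and 31635, 60923, 107435, 123829, 141388 and 181513 CPM in CgA-KO/PS19. Of these mt-Co3, a subunit of cytochrome oxidase, stood at 1470, 1639, 1727, 1711 and 1418 CPM in WT and at 1759, 4588 and 6956 CPM in CgA-KO/PS19 (log2 fold change 1.48, SE 0.31, edgeR adjusted p = 0.00959). Without the 4 libraries above 10% none of the 13 was called, so the count rests on them. Of 62 nuclear genes of the respiratory chain 9 rose (14.5%) and none fell, 53 fitted values were above 0 (median 0.20), and 1 was called without those libraries. Ndufb4, an accessory subunit of complex I, stood at 20.9, 25.2, 21.2, 16.8 and 19.2 CPM in WT and at 29.9, 40.1 and 46.7 CPM in CgA-KO/PS19 (log2 fold change 0.91, SE 0.13, adjusted p = 7.84e-04), with 26.9 CPM ± 1.75 (SD, n = 6) in PS19. Cox7b, Cox7a2 and Ndufb9 rose by 0.75, 0.77 and 0.61.

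Cytosolic ribosomal protein genes, a group chosen after the values were seen, were higher in many members. Of 82 tested, 43 rose and none fell (52.4%), and the median log2 fold change was 0.63. Rps3a1 stood at 71.9, 90.8, 81.4, 74.9 and 71.4 CPM in WT and at 166, 203 and 324 CPM in CgA-KO/PS19 (log2 fold change 1.48, SE 0.15, edgeR adjusted p = 1.48e-05), with 94.1 CPM in PS19. Among 160 ribosomal protein pseudogenes 62 rose and 3 fell (40.6%, median 0.78), and since reads can be shared between these and the parent genes the 2 counts are not separate. The summed level of the 82 genes was 5587 to 7360 CPM in WT, 10691 to 12383 CPM in CgA-KO/PS19 replicates 1 to 3, 7504 to 7971 CPM in replicates 4 to 6, and 6746 to 8571 CPM in PS19. Of the 82, 2 were called without the 4 libraries rich in mitochondrial counts, and 18 without WT replicate 5. Among the 3182 protein-coding genes with the shortest exon length 126 rose and 81 fell, against 88 and 135 among the 3181 with the longest. The part of transcript length and of the mitochondrial share in the ribosomal result was not tested.

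Stress genes split. Of 24 genes of the unfolded protein and integrated stress response Atf3 and Nupr1, stress-induced transcriptional regulators, rose by 2.06 and 1.38 (SE 0.47 and 0.39, edgeR adjusted p = 0.0151 and 0.0412), and the chaperones Hyou1, Calr and Canx of the endoplasmic reticulum fell by 0.77, 0.65 and 0.30 (adjusted p = 0.0209, 0.0139 and 0.0451). These calls were 20.8% of the list, against 6.46% of all genes tested. Leaving out the 4 libraries rich in mitochondrial counts left 1 gene of the list called higher and none lower.

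The immediate early genes showed a split inside the CgA-KO/PS19 group. Of 22 genes Jun and Inhba fell by 0.61 and 0.66 (SE 0.17 and 0.18, edgeR adjusted p = 0.0397 and 0.0337) and none rose, while the median log2 fold change was 0.64. These calls were 9.09% of the list, against 6.46% of all genes tested. Without the 4 libraries rich in mitochondrial counts, which leaves CgA-KO/PS19 replicates 4 and 5, 12 of the 22 were called higher and none lower, and none was called in either direction without WT replicate 5. The summed level was 1258 to 2019 CPM in CgA-KO/PS19 replicates 1 to 3, 4168 to 5151 CPM in replicates 4 to 6, 1749 to 2638 CPM in WT and 1752 to 3007 CPM in PS19. Replicates 4 to 6 thus lay above every WT library, and 2 of the other 3 lay below. Fos and Arc went from 25.1 CPM ± 5.94 and 111 CPM ± 47.7 (SD, n = 5) to 67.7 CPM ± 60.3 and 315 CPM ± 258 (SD, n = 6), and did not pass the test (adjusted p = 0.202 and 0.178). Of 18 clock genes Dbp, a clock output factor, fell by 0.92 (SE 0.23, edgeR adjusted p = 0.0234), which is 5.56% of the list against 6.46% of all genes tested. Without those 4 libraries 3 clock genes were called higher and 1 lower.

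The study's question about catecholamine signaling was addressed by the adrenergic receptors. Of 9 tested only 1 was called (11.1%, against 6.46% of all genes tested), Adra2a, the presynaptic inhibitory receptor. It stood at 22.6, 28.3, 19.8, 18.7 and 41.5 CPM in WT and at 12.3, 15.8 and 18.8 CPM in CgA-KO/PS19, where replicates 4 and 5, both at 18.8 CPM, lay just above the lowest WT library (log2 fold change -0.72, SE 0.21, edgeR adjusted p = 0.0454). PS19 held 11.2 CPM ± 2.98 (SD, n = 6). The call was lost in 14 of 27 alternative analyses.

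The alpha-1 receptors did not pass against WT. Adra1b stood at 18.8, 19.8, 12.7, 12.9 and 9.08 CPM in WT and at 9.40, 10.5 and 17.4 CPM in CgA-KO/PS19 (log2 fold change -0.23, SE 0.21, edgeR adjusted p = 0.586), with 26.7 CPM ± 4.21 (SD, n = 6) in PS19. Adra1d stood at 19.0, 23.1, 14.7, 6.16 and 7.98 CPM in WT and at 7.20, 11.4 and 32.6 CPM in CgA-KO/PS19 (log2 fold change 0.10, SE 0.37, adjusted p = 0.917), with 40.3 CPM ± 2.36 in PS19. Adra1a held 13.6 CPM ± 2.74 in WT and 13.9 CPM ± 1.5 in CgA-KO/PS19 (log2 fold change 0.04, SE 0.14, adjusted p = 0.917). The WT and CgA-KO/PS19 libraries overlapped in all 3 genes. Of the others, Adra2b, Adra2c, Adrb3 and Adrb1 had fitted log2 fold changes of -0.79, -0.20, -0.11 and 0.30, with adjusted p between 0.553 and 0.845. A p that misses the threshold does not show that these receptors were equal. None of 11 genes of catecholamine synthesis, transport and breakdown was called by edgeR, and DESeq2 called 1. An unadjusted p under 0.05 was held by 2 of them, against 5006 of the 23062 genes tested.

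Genes of tau biology itself held no call. Over all genes tested 6.46% were called, so lists of this size would hold few calls at that share. None of 33 tau kinases and phosphatases passed (median log2 fold change -0.05), with Gsk3b at 269 CPM ± 147 (SD, n = 5) in WT and 272 CPM ± 104 (SD, n = 6) in CgA-KO/PS19 and Cdk5 at 62.3 CPM ± 10.9 and 61.3 CPM ± 9.30. None of 27 microtubule-associated protein and neurofilament genes passed (median -0.06). The summed levels of the lists overlapped between the genotypes. Likewise edgeR called none of 22 cholesterol synthesis genes (median 0.02), of 30 lysosome and autophagy genes (median -0.05) and of 25 heat shock chaperones (median -0.19). At an unadjusted p under 0.05 there were 9 tau kinases and phosphatases and 4 microtubule and neurofilament genes. There were also 5 cholesterol genes, 6 lysosome genes and 5 chaperones. Over all genes tested 5006 of 23062 reached that p, so these counts by themselves show no excess. DESeq2 called 3, 2, 1, 3 and 1 members of these lists, in the order given.

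Of 31 synaptic vesicle release genes Sv2c fell, as described, and Rims1, a scaffold of the active zone, rose by 0.74 (SE 0.16, edgeR adjusted p = 0.012), from 221 CPM ± 34.1 (SD, n = 5) to 369 CPM ± 96.2 (SD, n = 6). Together these calls were 6.45% of the list, against 6.46% of all genes tested. Of 12 upper-layer markers of cortex Pou3f3 rose by 0.79 (SE 0.21, adjusted p = 0.0303) and Wfs1 fell, as described, together 16.7% of that list. Of 13 deep-layer markers Bcl11b, which striatal neurons also express, fell by 0.82 (SE 0.24, adjusted p = 0.0466), 7.69% of that list. Pou3f3 was called in 19 and Bcl11b in 12 of 27 alternative analyses. Single members also fell in the claustrum list (Nnat), the cilia list (Rsph1) and the meningeal list (Dcn). Single members rose in the oligodendrocyte precursor list (Bcas1) and the endothelial list (Ly6a). None of Nnat, Rsph1, Dcn, Bcas1 and Ly6a was called without the 4 libraries rich in mitochondrial counts. The shares called in the lists of Nnat, Rsph1, Dcn, Bcas1 and Ly6a were 5.56% to 12.5%, against 6.46% of all genes tested.

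**Figure D5:**
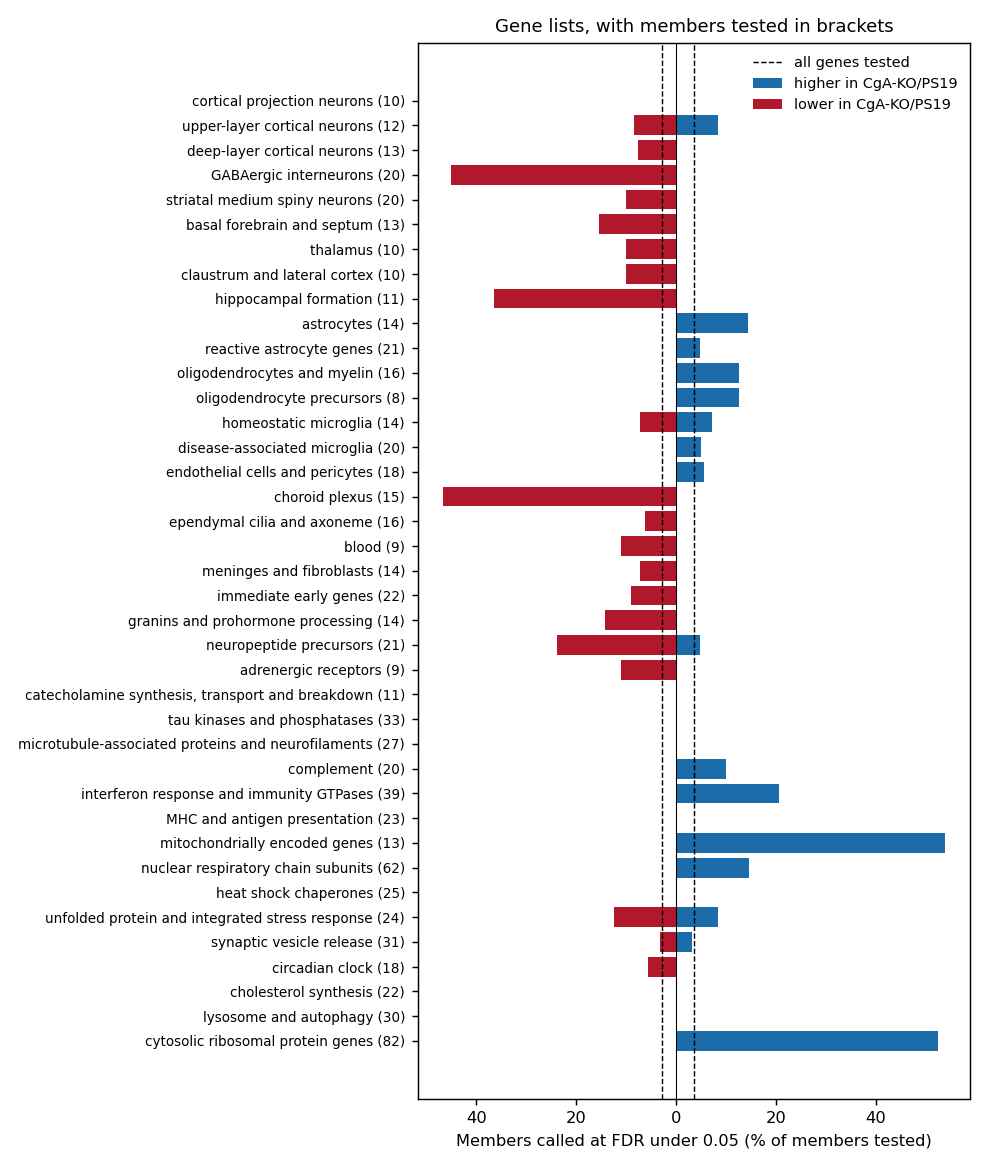
Share of tested members called at an FDR under 0.05 in each gene list, higher in CgA-KO/PS19 to the right (blue) and lower to the left (red), with the number tested in brackets; dashed lines mark the shares over all genes tested, 3.56% higher and 2.89% lower. Mitochondrially encoded and ribosomal protein genes extend farthest to the right and choroid plexus and interneuron genes to the left, and all 4 of these counts shrink to 2 or fewer without the 4 libraries rich in mitochondrial counts.

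Of all 1489 called genes, 79 were called in every alternative analysis. The count was 109 with the minimum of 10 counts and a mitochondrial setting left out. The named genes were picked in part for a small p or a large change, so their share does not stand for all calls. Of the 82 called genes named by the selection rule, 21 were called in each of the alternative analyses in which they were tested. These were Chga, Prnp, Lamr1-ps1, Gbp2b, 4930590L14Rik, Krt20, Gm17669, Gm26782, Serpina3n, Pop4, Vps41, Gm6166, Gm3375, Gm7224, Pnma2, ENSMUSG00000121477, Wfs1, Trh, Ndufb4, Sv2c and Rpl30-ps8.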

How the data were processed

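PolyA RNA of prefrontal cortex was sequenced as paired ends. The authors trimmed reads with Trimmomatic 0.39, aligned them with STAR 2.7.10b to mm10 and deposited a table of raw counts per gene made with StringTie 1.3.6. The annotation release and any use of strand are not given in the sources used here. Libraries were grouped by their labels, and nothing in the labels pairs replicate numbers. Counts were tested as deposited with edgeR 4.0.16 (R 4.3.3): TMM, filterByExpr, 1 mean per genotype over all 17 libraries, a quasi-likelihood contrast of CgA-KO/PS19 with WT and Benjamini-Hochberg adjustment over 23062 genes. The PS19 libraries entered the estimate of spread. Positions came from GENCODE M21, which held 52029 of the 56953 identifiers. A gene at 0 in 1 genotype was bounded with 9 counts, or 3 fragments, in that genotype's shallowest library, which covers counting error only.

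The members and the 39 gene lists were chosen with earlier results of these data known. Named were the genotype checks, in each direction the 6 called genes that changed most without overlap at 1 CPM or more, and the 6 with the smallest p, up to 4 called genes per list, 6 called genes near Chga and the adrenergic receptors, and any other gene was chosen after its values were seen. The sets without libraries rich in mitochondrial counts were also chosen after seeing the data. On simulated data edgeR recovered 40 of 100 genes changed by 1 on the log2 scale and 100 of 100 changed by 2, with 5 false calls among 22580 genes. The simulated counts were independent, with 1 dispersion for all genes and no differences in tissue content or mitochondrial share. These numbers therefore need not hold for the real libraries. CgA-KO/PS19 replicates 1 and 3, the most alike of that genotype, and PS19 replicates 4 to 6 differed by more than sampling noise and were kept apart. Where nothing says that libraries came from separate preparations, p-values measure only the spread between them. Values of a few list members are not reported here.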

Additional observations from a re-analysis of the deposited data

Results flagged for a closer look

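Within genotypes, 16 of 182 groups of values of the named genes held a library far from the rest by Dixon's test, and chance alone gives about 1 in 20 groups. WT replicate 5 was far above the other WT libraries in Ttr (1023 CPM), Sostdc1 (19.3 CPM), F5 (8.39 CPM) and Tmem72 (7.69 CPM), all on the choroid plexus list. WT replicate 4, the shallowest library, was far below the others in Mapt (199 CPM), Gm3375 (14.3 CPM) and Dsp (0 CPM) and apart in mt-Co2 (3765 CPM). WT replicate 2 was highest in Krt20 (0.138 CPM) and Cox7b (91.0 CPM), and WT replicate 1 in Cort (4.25 CPM). CgA-KO/PS19 replicate 2 was highest of its group in Gm8420 (0.518 CPM), Dsp (0.956 CPM) and Ttr (6.75 CPM). CgA-KO/PS19 replicate 4 was highest in Pnma2 (32.1 CPM), still below the lowest WT library, and replicate 6 in Nucb2 (27.7 CPM), within the WT range.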

How the results depend on the processing

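The number of calls moved with the method, and among the named genes few fitted directions did. DESeq2 called 1501 genes higher and 1074 lower, limma voom 1288 lower, and edgeR without a filter on low counts 504 higher. With 1 surrogate variable 1644 genes were higher and 1503 lower, and with the striatal level as a covariate 2286 and 2705 (1948 and 1601 at the threshold of the study's methods, 27 within 5 Mb of Chga). With only the WT and CgA-KO/PS19 libraries fitted 151 were higher, 115 lower, 462 lower at the threshold of the methods and 4 near Chga. A minimum of 10 counts in every library left 453 lower at that threshold. Averaging CgA-KO/PS19 replicates 1 and 3, and PS19 replicates 4 to 6, gave 307 higher, 272 lower and 7 near Chga. Without the 4 libraries rich in mitochondrial counts, chosen after seeing the data, there were 212 higher, 270 lower, 513 higher at the threshold of the methods and 5 near Chga. The cause was not tested, except that fewer libraries entered several of these fits.

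Leaving out each library in turn gave 341 to 1053 genes higher, 286 to 1067 lower and 7 to 14 near Chga. The lowest values came without WT replicate 5, and 463 and 384 genes were called without CgA-KO/PS19 replicate 2. The replicate numbers did not pair the libraries, since 1 of 5 WT libraries correlated best with its own number in CgA-KO/PS19. With a replicate block 325 genes were higher, 289 lower and 6 near Chga.

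Of the named genes, those whose fitted log2 fold change turned sign were not called, apart from Bcas1, which went to -0.026 without the 4 libraries rich in mitochondrial counts, where Adra1b went to 0.25 and Adrb3 to 0.30. With limma voom Adra1d went to -0.25 and Adrb1 to -0.032. With the striatal covariate Adra1a went to -0.070, Adra1d to -0.74, Adra2b to 0.18, Adra2c to 0.33 and Adrb1 to -0.44. Without both the shallowest WT library and the CgA-KO/PS19 library with the largest mitochondrial share Adra1d went to -0.026. Leaving out single libraries put Adra1a between -0.042 and 0.15, Adra1d between -0.27 and 0.34 and Adrb3 between -0.21 and 0.020. Depth limits genes under about 1 CPM in WT replicate 4.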

Other observations

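Among genes that no list or rule named, chosen after their values were seen, the pituitary hormone genes Prl and Gh were at 0 in all 6 CgA-KO/PS19 libraries. Prl stood at 0, 0, 1.21, 30.7 and 6.62 CPM in WT, at least 29.6-fold higher, and Gh at 0, 0.661, 3.13, 2.74 and 1.11 CPM, at least 5.88-fold higher, with edgeR adjusted p of 0.039 and 0.018. The WT libraries spread widely in both genes and 1 or 2 of them were at 0 as well. The bounds fall to 7.54-fold for Prl and 4.72-fold for Gh without WT replicate 4, the shallowest library, a setting chosen after the data were seen. Etnppl, an astrocyte enzyme of phosphoethanolamine breakdown, had a mean of 3.26 CPM in WT and 24.7 CPM in CgA-KO/PS19 (log2 fold change 2.96, SE 0.47, edgeR adjusted p = 0.0019), and its CgA-KO/PS19 libraries fell into replicates 1 to 3 at 31.5 to 44.8 CPM and replicates 4 to 6 at 8.45 to 12.5 CPM.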
